A study of Mus musculus with 34 samples.

Results

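Thy1 was followed as 1 gene across the hippocampus of 34 mice of 6 months. It was taken as the row of that name among 55385 genes, of which 17518 had enough counts to be tested. Thy1 encodes a small surface glycoprotein of the immunoglobulin superfamily, held in the membrane by a glycosylphosphatidylinositol (GPI) anchor. In mice it is abundant on neurons and on T cells. Its promoter is widely used to drive transgenes in neurons, and in 5xFAD mice it drives human transgenes, APP among them, with familial Alzheimer's disease mutations. Expression cassettes built from the gene usually keep noncoding parts of it around the inserted cDNA, so transcripts of a cassette can carry Thy1 sequence. The labels do not describe the construct. Reads of the resident gene and reads of a cassette could not be told apart in counts per gene.

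Poly(A) RNA was sequenced from 16 mice that carried the 5xFAD transgenes and 18 that did not. The 5xFAD-Dp16 mice carried the transgenes together with Dp16, a duplicated stretch of mouse chromosome 16 homologous to part of human chromosome 21, and numbered 4 with tofacitinib and 3 with sham. The 5xFAD mice numbered 5 with tofacitinib and 4 with sham. Mice with Dp16 alone numbered 5 with tofacitinib and 3 with sham, and wild-type (WT) C57BL/6J mice numbered 5 with each. Tofacitinib, an inhibitor of Janus kinases, was given by daily oral gavage at 15 mg/kg for a month, and sham mice received the vehicle, 0.5% methylcellulose. The strain of the other genotypes is not in the labels. The design text counts 1 more animal in the 5xFAD-Dp16 sham group and 1 more in the 5xFAD tofacitinib group, which were not analysed here. The labels number the animals and do not say whether they shared litters. In bulk tissue, fewer cells of a type and less RNA per cell cannot be told apart.

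Thy1 lies on the plus strand of chromosome 9 at chr9:44043384-44048579 (GRCm38) and has 6 annotated transcripts. The main coding transcript, Thy1-201, has 4 exons and 1735 bases, of which 489 are coding with the stop codon and 1246 (71.8%) lie outside the coding sequence. The exon that holds the end of the coding sequence also holds 1128 bases of 3′ untranslated sequence. The ends of the coding sequence are shown because they bound the part of the gene that makes the protein, while most of the transcript lies outside it. The first of the 3 coding segments, of 37 bases, lies at chr9:44045982-44046018. The last, of 113 bases with the stop codon, lies at chr9:44047339-44047451 in the exon that also holds the long untranslated part. Both are read on the plus strand from the GENCODE release 21 transcripts (GRCm38), and capitals mark the start codon and the stop codon.
Thy1-201 first coding segment: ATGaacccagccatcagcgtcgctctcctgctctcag
Thy1-201 last coding segment: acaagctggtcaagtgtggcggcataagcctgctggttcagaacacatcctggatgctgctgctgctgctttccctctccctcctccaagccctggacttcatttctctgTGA

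No annotated gene overlapped Thy1 (0 in GENCODE release 21). The nearest genes with enough counts to be tested gave a local reference for its level. Before it lay a lincRNA model on the opposite strand, 2325 bp away, and Nectin1, a cell adhesion molecule, 235923 bp away. After it lay Usp2, a deubiquitinase, 18442 bp away, and Rnf26, a ubiquitin ligase, 47052 bp away. Usp2 averaged 62.5 ± 13 counts per M (CPM) in mice with the transgenes and 62.8 ± 7.54 CPM in mice without them (SD, n = 16 and 18). Nectin1 averaged 67.4 ± 11.2 CPM with the transgenes and 65.6 ± 7.55 CPM without. Rnf26 averaged 4.14 ± 0.698 CPM with the transgenes and 4.22 ± 0.85 CPM without. The lincRNA model had a log2 fold change of 0.25 for the mean transgene effect (SE 0.33, edgeR adjusted p = 0.85). None of the other 3 genes passed the test for the mean transgene effect in edgeR's quasi-likelihood test, with log2 fold changes of -0.015 for Usp2 (SE 0.09, adjusted p = 0.976), 0.05 for Nectin1 (SE 0.07, adjusted p = 0.866) and -0.009 for Rnf26 (SE 0.108, adjusted p = 0.989).

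Libraries held 14.9 to 21.1 M counts (median 17.8 M). Of these, 3 stood apart in the markers of brain regions: WT tofacitinib library 3, 5xFAD tofacitinib library 2 and 5xFAD-Dp16 sham library 4. Their mean log2 CPM over 15 markers of the dentate gyrus was 3.92 in the 5xFAD library, 3.63 in the 5xFAD-Dp16 library and 3.28 in the WT library, against 4.86 to 6.01 in the other 31. Over 20 markers of thalamus and habenula it was 6.50 in the 5xFAD library and 5.44 in the 5xFAD-Dp16 library, against 2.62 to 4.58 in the other 31, and 3.34 in the WT library lay within that range. Over 17 striatal markers the 5xFAD library had 6.75 and the WT library 5.87, against at most 4.76 in the other 31. The ends of these ranges nearest to the 3 libraries (4.86, 4.58 and 4.76) all belonged to 5xFAD-Dp16 tofacitinib library 1. That library was kept in all values given without the 3. The 3 libraries were low in hippocampal markers, which goes against the tissue on their label, so values without them are given beside the results that they move.

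Thy1 was higher in every mouse with the 5xFAD transgenes than in any mouse without them. In 5xFAD-Dp16 mice on tofacitinib it had 1735, 2848, 2093 and 2610 CPM, and in 5xFAD-Dp16 mice on sham 2555, 2875 and 1254 CPM. In 5xFAD mice on tofacitinib it had 2277, 967, 2815, 2066 and 1793 CPM, and in 5xFAD mice on sham 2814, 2651, 2570 and 1935 CPM. The lowest of these 16 values came from 5xFAD tofacitinib library 2 and the next from 5xFAD-Dp16 sham library 4, both among the libraries that stood apart. In Dp16 mice Thy1 had 782, 890, 930, 930 and 934 CPM on tofacitinib and 831, 887 and 808 CPM on sham. In WT mice it had 877, 866, 902, 813 and 872 CPM on tofacitinib and 906, 838, 832, 884 and 922 CPM on sham. The 18 mice without the transgenes thus lay within a factor of 1.19 of each other, and the 16 with them within a factor of 2.97.

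**Figure D1:**
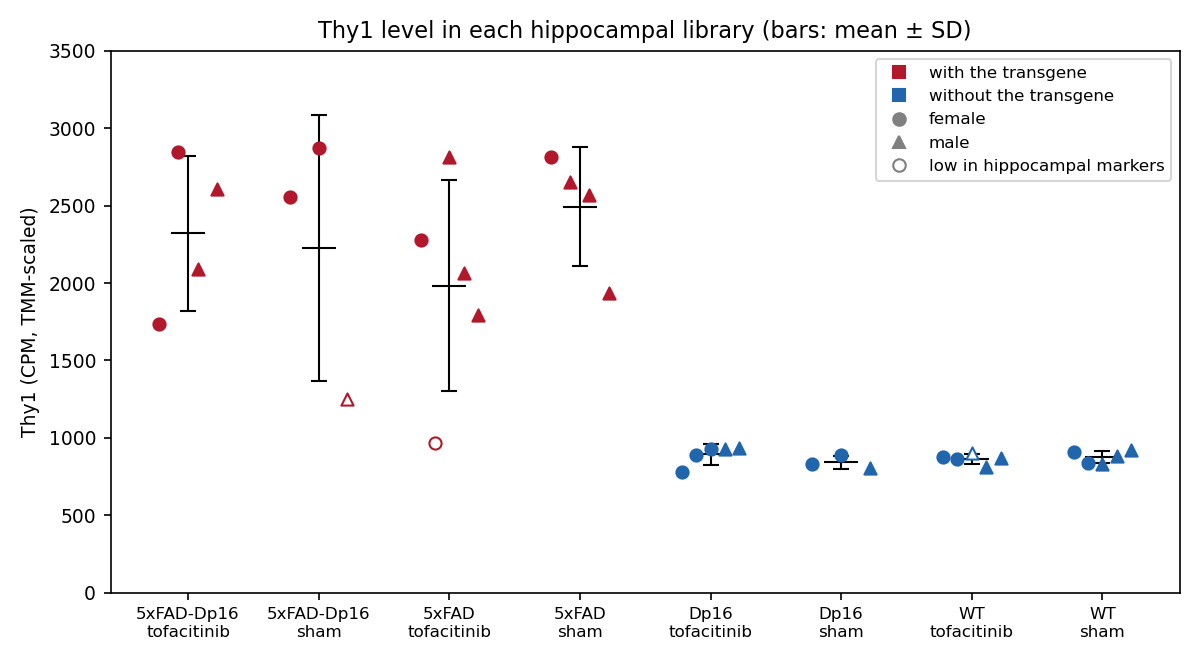
Thy1 in each of the 34 libraries in CPM (vertical axis), by group (horizontal axis), with points for animals and bars for the group mean and SD. The 16 mice with the 5xFAD transgenes lie between 967 and 2875 CPM, all above the 18 mice without them, which lie between 782 and 934 CPM.

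Over the class, Thy1 averaged 2241 ± 586 CPM with the transgenes (median 2416) and 872 ± 46.1 CPM without them (median 880). Without the 3 libraries that stood apart the means were 2403 ± 410 CPM with the transgenes (n = 14) and 871 ± 46.9 CPM without (n = 17). By group, Thy1 averaged 2493 ± 386 CPM in 5xFAD sham, 2321 ± 502 in 5xFAD-Dp16 tofacitinib, 2228 ± 859 in 5xFAD-Dp16 sham and 1983 ± 681 in 5xFAD tofacitinib. Below these came Dp16 tofacitinib with 893 ± 64.9, WT sham with 876 ± 40.2, WT tofacitinib with 866 ± 32.4 and Dp16 sham with 842 ± 40.6 CPM. In this order every pair of neighbours overlapped in range except 5xFAD tofacitinib and Dp16 tofacitinib, where the carriers and non-carriers of the transgenes meet.

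Per length of gene, in the authors' RPKM, Thy1 had 1186 ± 282 with the transgenes (range 532 to 1511) and 464 ± 25.1 without them (range 403 to 508). By RPKM it was among the most abundant genes of every library. It ranked between 14 and 55 of 55385 genes in mice with the transgenes and between 58 and 96 in mice without them. The length behind the authors' RPKM of Thy1, from counts and RPKM together, was 1878 bases. Set against the mean of the matched group without the transgenes, the 16 carriers had folds between 1.12 (5xFAD tofacitinib library 2) and 3.42 (5xFAD-Dp16 sham library 2). Next above the lowest came 1.49 in 5xFAD-Dp16 sham library 4, 1.94 in 5xFAD-Dp16 tofacitinib library 1 and 2.07 in 5xFAD tofacitinib library 6.

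The transgenes were compared with their absence within each Dp16 status and treatment, which asks how far the Thy1 row rises with 5xFAD. In sham mice Thy1 rose 2.85-fold in 5xFAD over WT (95% interval 2.14 to 3.81, log2 fold change 1.51, SE 0.20, edgeR adjusted p = 0.000152). In tofacitinib mice it rose 2.29-fold in 5xFAD over WT (1.74 to 3.02, log2 1.20, SE 0.19, adjusted p = 0.00227), with a log2 fold change of 1.39 without the 3 libraries that stood apart (adjusted p = 2.95e-08). On the Dp16 background with tofacitinib it rose 2.60-fold in 5xFAD-Dp16 over Dp16 (1.95 to 3.47, log2 1.38, SE 0.20, adjusted p = 0.000824). Thy1 ranked the third, the sixth and the third by p of the 17518 genes in these comparisons.

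In sham mice on the Dp16 background, Thy1 was 2.64-fold higher in 5xFAD-Dp16 than in Dp16 (95% interval 1.85 to 3.77, log2 1.40, SE 0.25), with the smallest p of all genes (4.33e-06) and an adjusted p of 0.0757, so it did not pass. No gene passed in that comparison: edgeR called 0, with 1275 genes at an unadjusted p under 0.05, and DESeq2 called 11. The 3 5xFAD-Dp16 sham libraries include one that stood apart. Without the 3 such libraries the log2 fold change was 1.68 with an adjusted p of 8.17e-08, so the call depends on whether they are kept. With all libraries kept, Thy1 passed with library totals as the scale, with no filter on low counts, with no term for sex and in DESeq2 (adjusted p 1.94e-15 to 0.0477). In 4 of the 9 alternatives it did not pass, with adjusted p up to 0.837. The replicate number as a block was one of these (edgeR adjusted p = 0.212).

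As a mean over the 4 comparisons the rise was 2.59-fold (95% interval 2.22 to 3.02, log2 1.37, SE 0.11, adjusted p = 6.36e-10), the third by p. By fold it was the 111th gene. The exact two-sided permutation test of log2 CPM between groups, added after the data were seen, gave p = 0.0159 for 5xFAD against WT in sham mice, 0.00794 in tofacitinib mice, 0.1 for 5xFAD-Dp16 against Dp16 in sham mice and 0.0159 in tofacitinib mice. Each is the smallest p that these group sizes allow. The groups did not overlap in any of these 4 comparisons.

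**Figure D2:**
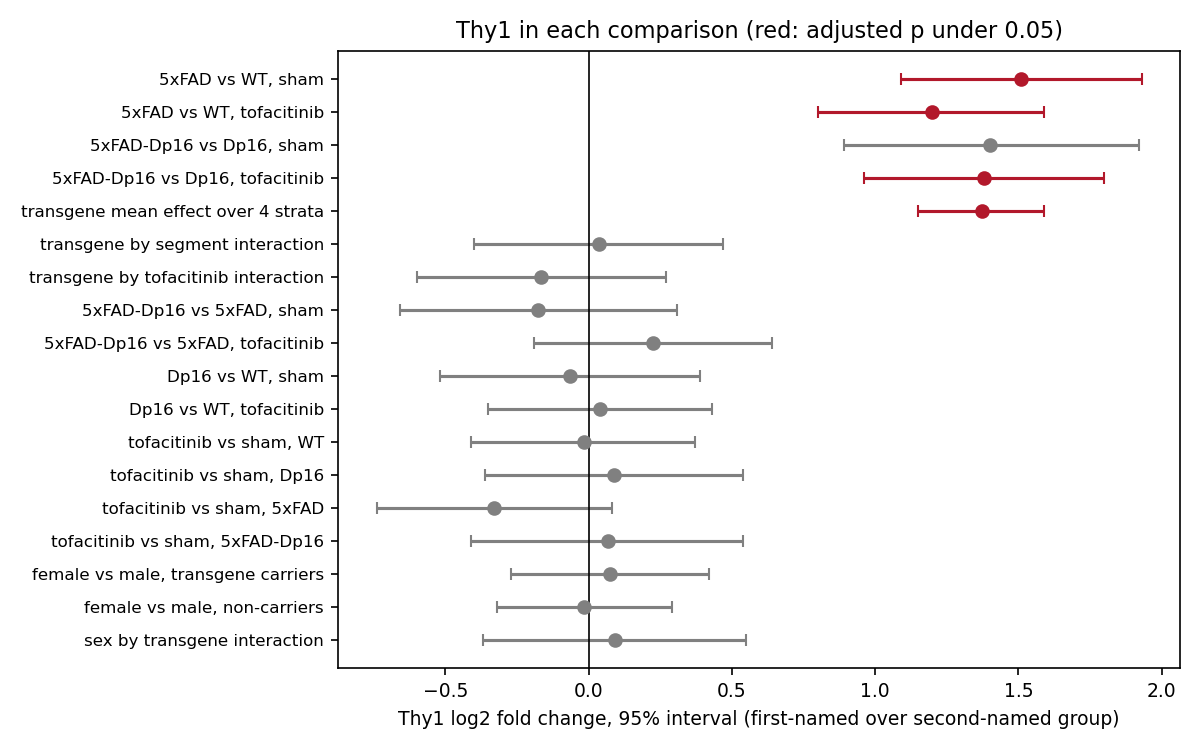
Log2 fold change of Thy1 in each comparison (horizontal axis) with its 95% interval, from 1 edgeR fit of all 34 libraries. The 4 transgene comparisons and their mean lie between 1.20 and 1.51 with intervals that leave out 0, and the intervals of the comparisons for Dp16, tofacitinib and sex all include 0.

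Dp16 and tofacitinib were then compared at fixed transgene status. The transgene effect on Thy1 with Dp16 minus that without it was 0.04 on the log2 scale (95% interval -0.40 to 0.47, adjusted p = 0.987). With tofacitinib minus with sham it was -0.17 (-0.60 to 0.27, adjusted p = 1). Among carriers, 5xFAD-Dp16 minus 5xFAD was -0.175 in sham mice (-0.66 to 0.31, adjusted p = 0.819) and 0.22 in tofacitinib mice (-0.19 to 0.64, adjusted p = 0.999). Without the 3 libraries that stood apart the sham value turned to 0.11 and the tofacitinib value was 0.045. Leaving out 5xFAD tofacitinib library 2 alone brought the tofacitinib value to 0.026. Dp16 minus WT was -0.065 in sham mice (-0.52 to 0.39) and 0.04 in tofacitinib mice (-0.35 to 0.43). The intervals leave room for changes of about the size of the spread among carriers, and a p that misses the threshold does not show that the groups had the same level.

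Tofacitinib minus sham was -0.33 in 5xFAD mice (95% interval -0.74 to 0.08, edgeR adjusted p = 0.788), and the groups overlapped. It was -0.146 without the 3 libraries that stood apart, and also without 5xFAD tofacitinib library 2 alone, and -0.493 without 5xFAD tofacitinib library 4. It was 0.07 in 5xFAD-Dp16 mice (-0.41 to 0.54) and -0.211 there without the 3 libraries. In mice without the transgenes it was 0.09 in Dp16 (-0.36 to 0.54) and -0.02 in WT (-0.41 to 0.37). These intervals use a spread shared by all 8 groups, which for Thy1 is set mainly by the carriers. With the compared groups alone the difference was 0.09 with an SE of 0.08 in Dp16 mice and -0.02 with an SE of 0.065 in WT mice.

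No difference of Thy1 between the sexes passed the test. With the transgenes it averaged 2296 ± 714 CPM in females (n = 7) and 2199 ± 506 CPM in males (n = 9), a log2 difference of 0.08 (95% interval -0.27 to 0.42, adjusted p = 0.999). Without them it averaged 867 ± 44.6 CPM in females and 877 ± 49.7 CPM in males (n = 9 each), a difference of -0.015 (-0.32 to 0.29). The transgene effect in females minus that in males was 0.09 (-0.37 to 0.55, adjusted p = 1). The sign in carriers turned to -0.132 without 5xFAD-Dp16 sham library 4, which came from a male, and was 0.071 without all 3 libraries that stood apart.

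The level of Thy1 was uneven among carriers and even among the other mice. The coefficient of variation within a group was 21.6% in 5xFAD-Dp16 tofacitinib, 38.5% in 5xFAD-Dp16 sham, 34.3% in 5xFAD tofacitinib and 15.5% in 5xFAD sham. It was 7.26% in Dp16 tofacitinib, 4.82% in Dp16 sham, 3.74% in WT tofacitinib and 4.59% in WT sham. On the log2 scale the mean absolute deviation of an animal from the median of its group was 0.294 with the transgenes and 0.0491 without them (difference 0.245, two-sided permutation p = 0.0003, 100000 permutations). Without the 3 libraries that stood apart it was 0.184 with the transgenes and 0.0491 without (difference 0.135, permutation p = 0.00113). These 3 libraries moved the difference by more than 1.5 times and did not end the call.

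Set against other abundant genes, Thy1 was among the more variable ones in carriers and among the steadier ones in the other mice. The comparison took the 2187 genes with at least 100 CPM on average and the SD of log2 CPM within groups. For Thy1 this SD was 0.473 with the transgenes and 0.0789 without them, while the median gene had 0.186 with and 0.128 without. A larger SD than that of Thy1 was found for 212 genes with the transgenes and for 1932 genes without them. The ratio of the SDs, with over without, was 6.00 for Thy1 and 1.39 for the median gene, and 27 genes had a larger ratio. Without the 3 libraries that stood apart the ratio was 3.37 for Thy1 and 1.19 for the median gene, and 5 genes had a larger one.

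**Figure D3:**
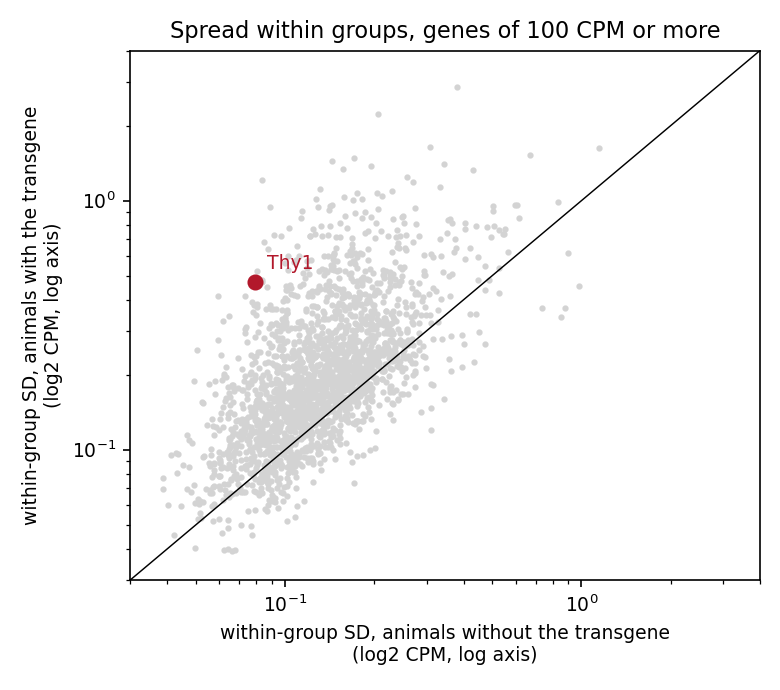
Within-group SD of log2 CPM in mice with the 5xFAD transgenes and in mice without them, for genes with at least 100 CPM on average, with Thy1 marked. Thy1 has an SD of 0.473 with the transgenes and 0.0789 without, a ratio of 6.00 against 1.39 for the median gene.

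The spread of Thy1 among carriers was then set beside the microglia that gather at amyloid plaques. These cells take up debris and switch on a set of genes led by Cst7 (a cysteine protease inhibitor), Itgax (an integrin subunit), Clec7a (a pattern recognition receptor) and Trem2 (a lipid-sensing receptor). The list held 30 such genes, of which 29 were tested. For the mean transgene effect 20 rose and 0 fell, with a median log2 fold change of 0.85 over the list and 0.00184 over all genes. Over all genes 1.59% were called in either direction, 278 higher and 1 lower. In the single comparisons 13 rose for 5xFAD over WT in sham mice, where 0.445% of all genes were called, and 11 in tofacitinib mice (0.32%). On the Dp16 background 0 rose in sham mice (0%) and 3 in tofacitinib mice (0.0285%). In that sham comparison edgeR had 15 of the list at an unadjusted p under 0.05, and DESeq2 called 2, Ccl6 and Cst7. Without the 3 libraries that stood apart 19 of the list rose in the mean effect. Cst7 had 20.5 ± 13.9 CPM with the transgenes and 0.207 ± 0.201 CPM without, Trem2 35.2 ± 14.5 with and 11.9 ± 1.84 without, and Clec7a 10.5 ± 6.1 with and 0.682 ± 0.454 without.

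Among the 16 carriers, the animals with low Thy1 were mostly those with low Cst7. The 5 lowest Thy1 levels were in 5xFAD tofacitinib library 2, 5xFAD-Dp16 sham library 4, 5xFAD-Dp16 tofacitinib library 1, 5xFAD tofacitinib library 6 and 5xFAD sham library 4. Cst7 there had 6.77, 2.25, 16.7, 6.59 and 4.47 CPM in that order, against 11.7 to 48.1 CPM in the other 11 carriers. Tcf7l2, a transcription factor abundant in thalamus and habenula, had 206, 230, 58.2, 8.52 and 6.79 CPM in the same 5 libraries. Of these 5, then, the first 3 were also high in this thalamic marker, against a median of 8.13 CPM in carriers, and the last 2 were low in Cst7 without it. Outside these 5, 5xFAD tofacitinib library 1 had Tcf7l2 at 30.8 CPM, with Thy1 at 2277 CPM and Cst7 at 22.8 CPM. Over 14 choroid plexus markers, the 5 libraries lowest in Thy1 had a mean log2 CPM of 6.36, 5.47, 4.96, 5.68 and 6.06. The median was 1.68 in carriers and 3.6 in mice without the transgenes. Among the other 11 carriers, 5xFAD sham library 1 had 6.26 and 5xFAD-Dp16 tofacitinib library 3 had 4.1, and the rest had at most 1.86. The relation of Thy1 to these markers was not tested.

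For the relation per animal, each level was taken as its deviation from the mean of its own group, on the log2 scale, and permuted within groups. A list's level was the mean log2 CPM of its genes. Carriers and non-carriers were kept apart because they do not overlap in Thy1. In all 22 relations were computed, over 11 lists and 2 classes, and p-values were adjusted over them. Depth and tissue mix are common to every gene of a library and are part of each relation.

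In carriers Thy1 was higher where plaque microglia genes were higher (Pearson r = 0.70, n = 16, permutation p = 0.00592, adjusted p = 0.0186, Spearman rho = 0.60, permutation p = 0.0106, adjusted p = 0.0326). With homeostatic microglia genes, which mark resting microglia, r was 0.78 (permutation p = 0.00125, adjusted p = 0.00917, rho = 0.75, permutation p = 0.00215, adjusted p = 0.0236). The animals farthest in Thy1, 5xFAD-Dp16 sham library 4 and 5xFAD tofacitinib library 2, are both libraries that stood apart. Without them r was 0.57 for plaque microglia genes and 0.66 for homeostatic ones. With the 3 libraries left out of every step, r was 0.54 (adjusted p = 0.156) and 0.62 (adjusted p = 0.131), so neither relation passed without them. With 1 library left out at a time, the plaque microglia call was lost in 2 of 16 refits (permutation adjusted p up to 0.0593). The homeostatic call was lost in 1 (adjusted p = 0.0501). With reactive astrocyte genes r was 0.17 (permutation p = 0.667, adjusted p = 0.677) and rho -0.01 (permutation p = 0.974, adjusted p = 0.974).

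The regional lists also moved with Thy1 in carriers. Thy1 was higher where markers of the dentate gyrus (r = 0.85, permutation p = 0.00707, adjusted p = 0.0194), CA1 (r = 0.87, p = 0.0114, adjusted p = 0.025), CA3 (r = 0.82, p = 0.0261, adjusted p = 0.0479) and neocortex (r = 0.81, p = 0.00583, adjusted p = 0.0186) were higher. It was lower where markers of thalamus and habenula (r = -0.91, p = 0.00193, adjusted p = 0.00946), striatum (r = -0.77, p = 0.00087, adjusted p = 0.00917) and myelin (r = -0.90, p = 0.00215, adjusted p = 0.00946) were higher. The rank correlations had the same signs, with rho from 0.60 (CA3) to 0.76 (CA1 and neocortex) and from -0.80 (thalamus and habenula) to -0.61 (striatum). Of these 7 rho values, those for CA1 (permutation p = 0.00769, adjusted p = 0.0282), neocortex (p = 0.0119, adjusted p = 0.0326), thalamus and habenula (p = 0.00588, adjusted p = 0.0259) and striatum (p = 0.0045, adjusted p = 0.0259) passed. Those for the dentate gyrus (permutation p = 0.0268, adjusted p = 0.0526), CA3 (p = 0.0491, adjusted p = 0.0771) and myelin (p = 0.021, adjusted p = 0.0512) did not.

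These regional relations were weaker without the libraries that stood apart. With 1 library left out at a time, the calls for thalamus and habenula, striatum and myelin held in all 16 refits. The call for CA3 was lost in 8 of them (permutation adjusted p up to 0.2). Those for the dentate gyrus (adjusted p up to 0.0741) and CA1 (up to 0.0944) were lost in 3 each, and that for neocortex in 2 (up to 0.07). With the 2 animals farthest in Thy1 left out, r was 0.60 for the dentate gyrus, 0.61 for CA1, 0.46 for CA3, 0.63 for neocortex, -0.76 for thalamus and habenula, -0.63 for striatum and -0.74 for myelin. With the 3 libraries left out of every step none of the 7 passed, at r of 0.415 for the dentate gyrus (adjusted p = 0.297), 0.36 for CA1 (0.431), 0.083 for CA3 (0.776), 0.498 for neocortex (0.293), -0.655 for thalamus and habenula (0.131), -0.646 for striatum (0.0718) and -0.621 for myelin (0.131). What part the mix of tissue has in the level of Thy1 among carriers was not tested.

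Markers shared by neurons of all regions were set beside Thy1 last. In carriers r between Thy1 and the 16 pan-neuronal genes was 0.67 (permutation p = 0.00825, adjusted p = 0.0202, rho = 0.75, permutation p = 0.00549, adjusted p = 0.0259), and 0.82 without the 2 animals farthest in Thy1. With the 3 libraries left out it was 0.886 and passed (adjusted p = 0.00352). With 5xFAD-Dp16 sham library 4 alone left out it was 0.563 and did not pass (adjusted p = 0.0573). On the deposited RPKM it was 0.31 and did not pass (adjusted p = 0.291). In mice without the transgenes it was 0.76 (n = 18, permutation p = 1e-05, the smallest that 100000 permutations can give, adjusted p = 0.00022, rho = 0.82, permutation p = 7e-05, adjusted p = 0.00154), and 0.72 without the 2 animals farthest in Thy1.

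**Figure D4:**
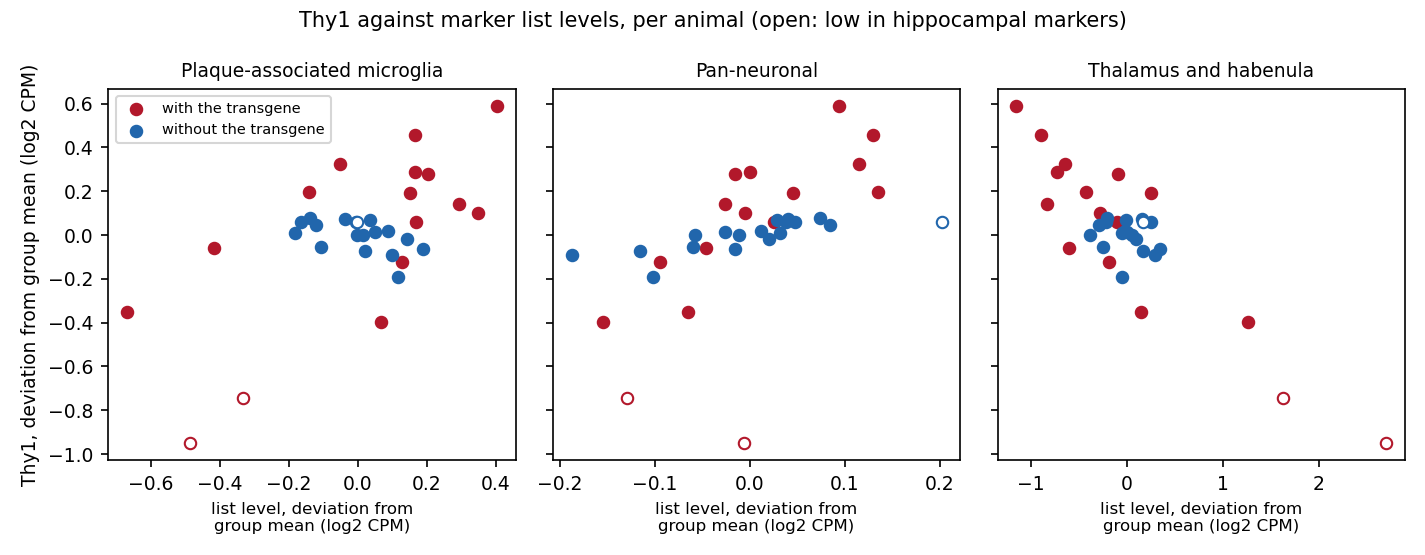
Thy1 against marker lists per animal, as deviations from group means on the log2 scale, for mice with the 5xFAD transgenes and mice without them. In carriers r is 0.70 for plaque microglia genes and -0.91 for thalamus and habenula genes, with 5xFAD-Dp16 sham library 4 and 5xFAD tofacitinib library 2 farthest out in Thy1.

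In mice without the transgenes no microglial relation passed with all libraries kept. With plaque microglia genes r was -0.51 (n = 18, permutation p = 0.0441, adjusted p = 0.0692, rho = -0.57, permutation p = 0.0287, adjusted p = 0.0526), of the opposite sign to that in carriers. With homeostatic microglia genes it was -0.29 (permutation p = 0.285, adjusted p = 0.418), and with reactive astrocyte genes -0.42 (permutation p = 0.0426, adjusted p = 0.0692). With neocortex markers r was 0.47 (permutation p = 0.026, adjusted p = 0.0479), and rho of 0.51 did not pass (permutation p = 0.0257, adjusted p = 0.0526). The call on r was lost in 14 of 18 refits with 1 library left out, with adjusted p up to 0.0964, and in 4 of 5 alternatives, with adjusted p up to 0.156. The remaining 6 lists had r between -0.17 (thalamus and habenula) and 0.21 (CA3), and none passed. WT tofacitinib library 3, which stood apart, set several of these values. Without it r was 0.515 for the dentate gyrus (adjusted p = 0.0827), 0.376 for CA1 (adjusted p = 0.242) and -0.142 for striatum (adjusted p = 0.701), each of the opposite sign. For CA3 it was 0.583 and passed (adjusted p = 0.0261), but not with all 3 libraries left out (adjusted p = 0.0718). Whether a relation differs between carriers and non-carriers was not tested.

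The mouse gene App was read next. Its human version is carried by the 5xFAD mice, and the mouse gene lies in the Dp16 segment. App had 2351 ± 255 CPM in 5xFAD-Dp16 tofacitinib and 2725 ± 276 in 5xFAD-Dp16 sham, against 2328 ± 273 in Dp16 tofacitinib and 2320 ± 209 in Dp16 sham. It had 1574 ± 333 CPM in 5xFAD tofacitinib and 1634 ± 140 in 5xFAD sham, against 1617 ± 246 in WT tofacitinib and 1666 ± 207 in WT sham. The mean transgene effect on App was 0.05 (SE 0.07, adjusted p = 0.855). The App row of the mouse annotation thus did not pass the test where the Thy1 row did. Whether human transcripts were counted to it was not tested.

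Of 14 genes for App and the machinery that cuts it, all were tested and edgeR called 0 in the 4 transgene comparisons and in their mean, where the median log2 fold change was 0.02. Over all genes edgeR called 1.59% in the mean effect and 0% to 0.445% in the single comparisons. A count of 0 on a list this short is near those shares. In the mean effect 3 of the 14 had an unadjusted p under 0.05 and DESeq2 called 1, Adam17 (adjusted p = 0.0396). DESeq2 called 0 in the 4 single comparisons, where edgeR had 2 of the list at an unadjusted p under 0.05 for 5xFAD over WT in sham mice, 1 in tofacitinib mice and 0 on the Dp16 background. The smallest p for the mean effect in edgeR belonged to Adam17, a metalloprotease that sheds membrane proteins, at 0.24 (adjusted p = 0.0653). Aph1b, a gamma-secretase subunit, was at -0.11 (adjusted p = 0.471) and Ncstn, another subunit, at 0.09 (adjusted p = 0.486).

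On a list of 39 other GPI-anchored proteins of the neuronal surface no gene passed the test. All 39 were tested, and edgeR and DESeq2 each called 0 in the 4 comparisons and in their mean. Over all genes edgeR called 1.59% in the mean effect and 0% to 0.445% in the single comparisons. A count of 0 on this list is near those shares. At an unadjusted p under 0.05 edgeR had 1 of the 39 in the mean effect, 2 for 5xFAD-Dp16 over Dp16 in sham mice and 0 in the other 3 comparisons. The median log2 fold change in the mean effect was 0. Those with the smallest p were Ncam1, a neural cell adhesion molecule, at 0.15 (adjusted p = 0.449), Efna3, an ephrin, at -0.135 (0.506), Ntng1, a netrin-G, at 0.39 (0.545) and Mdga2, a regulator of synapse formation, at 0.11 (0.569). Of the 16 pan-neuronal genes edgeR and DESeq2 called 0 in the mean effect, with 1 at an unadjusted p under 0.05 and a median of -0.03. That count, too, is near the share of all genes.

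Proteins known to bind Thy1 were counted as the other side of its surface contacts. They are mostly integrin subunits, with the proteoglycan Sdc4 and the adhesion receptor Adgre5. Of 9, all tested, 5 rose and 0 fell in the mean transgene effect (median 0.44), where 1.59% of all genes rose, and the same count of 5 was reached without the 3 libraries that stood apart. In single comparisons 3 rose for 5xFAD over WT in sham mice, where 0.445% of all genes rose. In tofacitinib mice 2 rose, where 0.308% of all genes rose. On the Dp16 background 0 rose in sham mice, where 0% of all genes rose, and 0 in tofacitinib mice, where 0.0285% rose. A count of 0 on a list this short is near those shares. DESeq2 also called 0 on the Dp16 background, and edgeR had 1 at an unadjusted p under 0.05 in sham mice and 3 in tofacitinib mice. Itgax, also on the plaque microglia list, had 4.65 ± 3.47 CPM with the transgenes and 0.436 ± 0.253 CPM without (log2 3.27, SE 0.42, adjusted p = 9.53e-06). Itgb2, the integrin beta subunit of leukocytes, had 16.7 ± 5.3 CPM with and 8.56 ± 2.12 CPM without (0.93, SE 0.14, adjusted p = 5.02e-05). Itgb5 had 90.6 ± 17.9 CPM with and 66.3 ± 6.86 CPM without (0.44, adjusted p = 0.000349), and Itgb3 4.38 ± 1.06 with and 2.9 ± 0.663 without (0.55, adjusted p = 0.00624). The fifth was Itgam, the alpha partner of Itgb2 on microglia, at 0.50 (adjusted p = 0.0165). In the same mean effect 20 of 29 plaque microglia genes and 9 of 16 homeostatic microglia genes rose. Whether the rise of these 5 had to do with Thy1 was not tested.

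The genes most like Thy1 depended on which animals were compared, and the correlations are given as descriptions over 14454 genes with at least 1 CPM on average. Over all 34 libraries they were Cst7 (r = 0.935), Cd68 (0.922), Ccl6 (0.921), Mpeg1 (0.914) and Trem2 (0.907), genes of microglia that themselves rose with the transgenes, so that the difference between carriers and non-carriers is part of each value. By deviations from group means over the 16 carriers they were Ankrd13b (0.967), Extl1 (0.966), Creg2 (0.955), Ube2ql1 (0.955) and Capzb (0.955). The most opposite were Atpaf1 (-0.967), Slc20a2 (-0.951) and Tppp3 (-0.943), the last a gene of oligodendrocytes. Over the 18 mice without the transgenes they were Prrt2 (0.954), a presynaptic protein, Tspyl1 (0.939), Kif1bp (0.91), Rgs7 (0.897) and Hnrnph2 (0.896), and opposite to Thy1 were Ctdsp1 (-0.896) and the ribosomal protein gene Rps15a (-0.874).

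The 5 genes most like Thy1 within carriers and the 5 within non-carriers shared no gene. Lists of 5 out of 14454 genes would seldom share one in any case, so this does not show a difference. Without the libraries that stood apart r was 0.96 for Ankrd13b, 0.913 for Extl1, 0.828 for Creg2, 0.839 for Ube2ql1 and 0.843 for Capzb in carriers, and 0.961 for Prrt2 in mice without the transgenes. None of these 6 genes passed the test for the mean transgene effect, in which 1.59% of all genes were called. Ankrd13b was at -0.11 (adjusted p = 0.522), Extl1 at -0.09 (0.822) and Prrt2 at -0.024 (0.966). Libraries share depth and tissue mix across all genes, which these correlations include.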

How the data were processed

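Whole, unnormalised read counts per gene were deposited by the authors for each library, on gene models of GENCODE release 24 (GRCm38) going by the deposited names. The authors also deposited RPKM for the same libraries. Tools named in the submitters' processing notes, with no role stated, are HTSeq 0.6.1, SAMtools 1.5, HISAT2 2.1.0, FastQC 0.11.5 and bcl2fastq. Libraries were strand-specific pairs of 150 bp per the labels' protocols, and no source used here gives the strand setting of the counting. Positions came from GENCODE release 21, also on GRCm38, where 99.6% of the gene IDs were found.

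Counts were scaled with TMM, filtered with filterByExpr by group (17518 genes) and fitted with edgeR 4.0.16 (quasi-likelihood, robust, R 4.3.3, limma 3.58.1) with 8 group means and a term for sex. This left 25 residual degrees of freedom. Tests are two-sided, adjusted by Benjamini-Hochberg over all genes tested, with a threshold of 0.05, and adjusted p-values of genes come from it unless another test is named. Each SE was computed from the log2 fold change and the F statistic. CPM are per M counts in tested genes, TMM-scaled, as mean ± SD. Log2 CPM used a prior count of 2, and log2 RPKM a pseudocount of 0.1. Permutations (100000) ran in Python 3.11.15 with scipy 1.17.1. DESeq2 1.42.0 was an alternative, and the other alternatives were other scalings, no filter, no sex term, a replicate block and left-out libraries. The fit was also run on simulated counts with the same spread for every gene and animal. That setting does not hold the uneven spread of Thy1 among carriers, so it cannot tell how the tests behave there. The labels do not say that animals of a number share a litter or day, so p-values measure the spread between these samples.

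The gene, the lists and the tests were chosen with earlier results of these data known. Genes named beside Thy1 are App, the 2 tested genes on either side of it (unnamed models not by name), the most and least like it, up to 4 per list by smallest p, and set plaque and regional markers. Itgam and the other list members beyond that were named after their values were seen. Reads of near-identical sequence in a transgene and in the resident gene cannot be separated in these counts. Some genes that this rule names are not reported here.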

Additional observations from a re-analysis of the deposited data

How the results depend on the processing

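The rise of Thy1 with the transgenes kept its direction in every alternative run, and its log2 fold change as a mean over the 4 comparisons lay between 1.31 and 1.49. The 5xFAD over WT call in tofacitinib mice was lost with the compared groups alone (1.179, adjusted p = 0.267), where fewer libraries enter the fit. The 5xFAD-Dp16 over Dp16 value in sham mice passed with library totals (1.41), no filter (1.396), no sex term (1.404), DESeq2 (1.398) and without the 3 libraries that stood apart (1.679), and the cause was not tested. It did not pass in 4 of the 9 alternatives, with adjusted p up to 0.837. With each library left out it lay between 1.175 and 1.696, and it passed in only 4 of 34 refits (adjusted p up to 0.489). These were the refits without 5xFAD sham library 4, 5xFAD tofacitinib library 2 or 4, or 5xFAD-Dp16 sham library 4.

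Values near 0 that never passed changed sign. Without the 3 libraries 5xFAD-Dp16 over 5xFAD in sham mice was 0.11 and tofacitinib over sham in 5xFAD-Dp16 mice was -0.211. With each library left out, that genotype difference lay between -0.39 and 0.166, the treatment difference in 5xFAD-Dp16 mice between -0.249 and 0.289, that in WT mice between -0.042 and 0.004, the transgene by Dp16 difference between -0.074 and 0.191, the sex difference in carriers between -0.132 and 0.272 and in other mice between -0.036 and 0.007, and the difference of the sex effects between -0.117 and 0.287.

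Among relations in carriers, without the 3 libraries r was 0.537 for plaque microglia, 0.616 for homeostatic microglia, -0.134 for reactive astrocytes, -0.621 for myelin, 0.415 for dentate gyrus, 0.36 for CA1, 0.083 for CA3, 0.498 for neocortex, -0.655 for thalamus and habenula and -0.646 for striatum. In the other mice it was 0.515 for dentate gyrus, 0.376 for CA1, 0.504 for neocortex and -0.142 for striatum. CA3 in carriers had 0.819 with DESeq2 size factors and 0.772 on RPKM, and pan-neuronal genes 0.31 on RPKM. In the other mice neocortex had 0.462 with size factors, 0.364 on RPKM and 0.411 on levels as they are, and CA1 0.022 on RPKM.

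With each library left out, r in carriers lay between 0.61 and 0.749 for plaque microglia, 0.713 and 0.843 for homeostatic microglia, -0.187 and 0.28 for reactive astrocytes, 0.563 and 0.876 for pan-neuronal genes, 0.761 and 0.888 for dentate gyrus, 0.769 and 0.91 for CA1, 0.684 and 0.869 for CA3, and 0.786 and 0.848 for neocortex. In the other mice it lay between -0.624 and -0.449 for plaque microglia, -0.716 and -0.317 for reactive astrocytes, -0.197 and 0.515 for dentate gyrus, -0.303 and 0.376 for CA1, 0.112 and 0.583 for CA3 (which passed without WT tofacitinib library 3), 0.409 and 0.551 for neocortex, and -0.142 and 0.313 for striatum. Plaque microglia passed there without Dp16 sham library 3 (permutation adjusted p = 0.0283). Reactive astrocytes passed without that library (0.0479) and without Dp16 tofacitinib library 1 (0.0173).

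With the replicate number as a block, the mean transgene effect was 1.385 (adjusted p = 3.01e-07) and no call on Thy1 changed, while genes called for 5xFAD over WT in sham mice numbered 22 instead of 78 and in tofacitinib mice 80 instead of 56. The lowest correlation of same-numbered libraries was -0.78, and 6 of 33 correlated best with their own number. These values cannot tell whether animals of a number shared a litter or day.

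Groups of 3 to 5, a spread shared by all groups and the 3 libraries that stood apart limit what these data resolve.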
